A study of Mus musculus with 8 samples.

Results

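Kinesins, myosins and centrosomal Cep proteins move, anchor and divide the contents of a cell, and their transcripts are described here by their N6-methyladenosine (m6A). The genes were taken by a rule on their names, a choice made with earlier results of these data known. The rule took every gene whose symbol begins with Kif, Cep or Myo followed by a digit. Each also had to carry a called m6A site in both control lists of a mouse cell line. That gave 57 genes of 8806 with a site in both control lists, made up of 22 Kif, 26 Cep and 9 Myo genes. They held 278 of the 49554 sites called at the same position in both controls, and 56 of the 57 genes had such a shared site. Cep20 had 1 site in each list at different positions. Kif22-ps is a pseudogene of a kinesin by RefSeq, so its 1 site could hold reads of the parent gene.

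m6A was measured with GLORI, a chemical method in which unmethylated adenosine is converted and read as G while methylated adenosine is still read as A. The level of a site is the share of A reads among its A and G reads. TBLC cultured in MYCP medium received an siRNA against Virma (siVirma) or a control siRNA (siNC), with 2 libraries each. Virma is a scaffold subunit of the nuclear complex that writes m6A. A second experiment used EPSC with a dCas13b-FTO system, in which an RNA-binding Cas protein carries the m6A eraser FTO, and a guide against Gata6 (sgGata6) or a control guide (sgCtrl). Its 2 libraries per group were deposited as pooled values. Separate cultures are not named for the replicates, so the p-values measure how much these libraries vary and part of that variation could be technical.

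Kinesins are motors that walk along microtubules. Some slide and shorten the microtubules of the mitotic spindle, and others carry vesicles and the building blocks of cilia. Myosins pull on actin filaments, and the myosins measured here are unconventional ones that link membranes or signalling proteins to actin. Cep proteins build centrioles, recruit the material around them and convert the older centriole into the base of a cilium. m6A is placed on mRNA during transcription, most densely near stop codons and in long internal exons, and marked transcripts are generally turned over faster.

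The lists hold only called sites, each with at least 15 A and G reads, at least 5 A reads and a level of at least 0.1. The siVirma libraries listed 41082 and 34739 sites and the siNC libraries 66350 and 61957. For the Kif, Cep and Myo genes these were 261 and 215 sites in siVirma and 379 and 372 in siNC, over 11399 and 8235 reads against 14949 and 14033 reads. Virma itself had a deposited gene coverage of 24.0 and 22.8 in siVirma and 40.3 and 38.2 in siNC, so both siVirma libraries lay below both controls (fold 0.531, adjusted p = 0.000403, limma). Of the marker lists, 13 of 14 pluripotency genes and 13 of 18 genes of the 2-cell program had a site in both siNC lists. Of 20 fibroblast (feeder) genes 16 did.

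The sites were spread unevenly over the genes. The median gene had 3 sites called in both siNC libraries, as in the whole data set, and the count ran up to 21. A single site was found in 15 genes (26.8%, against 24.3% of all genes), and 5 or more sites in 19 genes (33.9%, against 40.6%). The genes with the most sites were Myo10 and Cep192 with 21 each, Myo18a with 18, Cep170b with 17, Cep85 with 15, Kif13a with 13, Myo9b with 12 and Kif3b with 10. Myo10 extends filopodia, Myo18a links Golgi membranes to actin, and Myo9b is an unconventional myosin that moves along actin. Cep192 is a scaffold of the material around centrioles, Cep85 takes part in centriole duplication, and Cep170b is the paralog of a protein of the older centriole. Kif13a carries vesicles, and Kif3b is a motor subunit of the kinesin that brings cargo into cilia. Mitotic kinesins had fewer sites, with 29 sites in 10 genes, of which 8 lay in Kif11, the motor that pushes spindle poles apart.

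**Figure D1:**
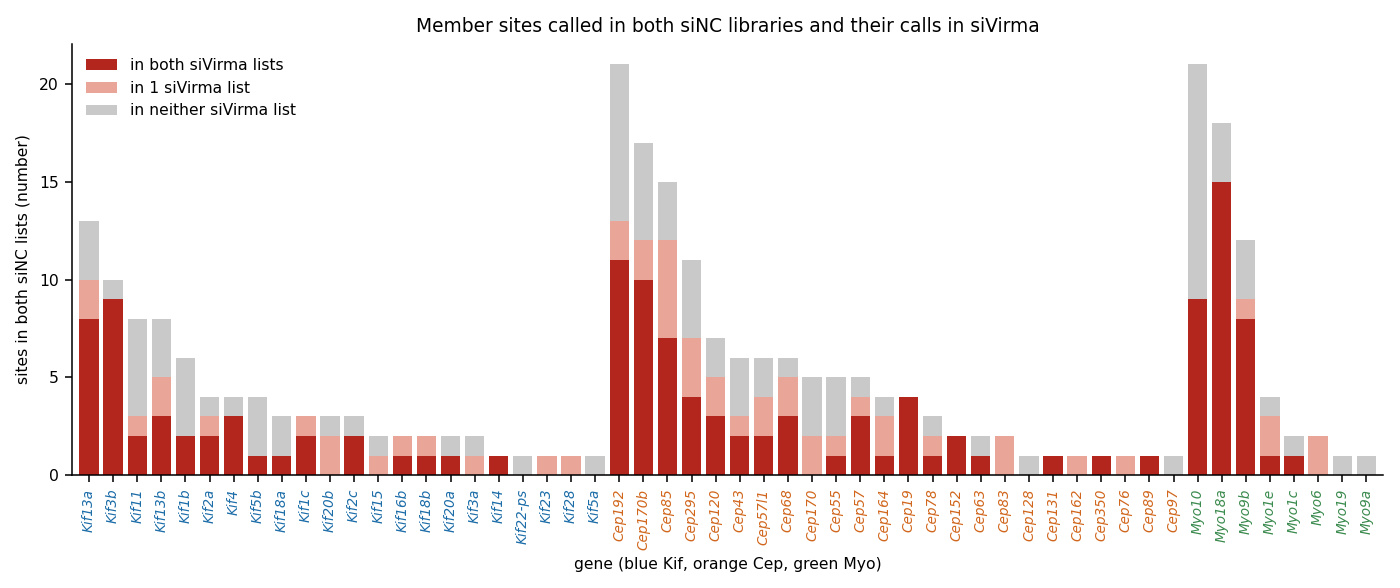
Number of sites called in both siNC lists for 54 of the 56 genes with at least 1 such site, coloured by whether the site was also called in both siVirma lists, in 1 or in neither. Myo18a kept 15 of 18 sites and Kif3b 9 of 10, while Kif11 kept 2 of 8 and Cep170 none of 5 in both siVirma lists.

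A minority of the sites had a close neighbour. A site of the same gene within 50 nt was found for 105 of 278 sites (37.8%, against 45.2% of all sites with a gene name), and the median distance to the nearest site of the same gene was 79 nt, against 55 nt. The families differed in this description. Myo sites were clustered in 53.2% of cases with a median distance of 46 nt, Cep sites in 40.2% with 85 nt, and Kif sites in 22.6% with 111 nt. The shares were 20.5% against 21.7% with a window of 20 nt and 52.9% against 64.2% with 100 nt. Read depth differed as well. The median site had 32.75 reads in siNC, against 43.5 over all sites, with 45 in Myo, 31.5 in Kif and 31.25 in Cep. The part of depth in the number and spacing of called sites was not tested. No test was made over the genes of a list, so these are counts and not a called difference. Sites that share a gene also share its reads and are not replicates.

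Several clusters held sites of very different level within a few bases. Kif11 had 3 sites within 37 nt on the plus strand of chromosome 19 (37408919 to 37408955, build mm39). The first had levels of 0.203 and 0.207 in siVirma and 0.721 and 0.730 in siNC. The last had 0.192 and 0.232 in siVirma and 0.664 and 0.667 in siNC. The middle site, at 37408944, was at 0.104 in siVirma replicate 1, was not called in siVirma replicate 2, and had 0.247 and 0.235 in siNC. The middle site was the lowest of the 3 in both controls.

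In Cep57, whose protein joins Cep63 in a ring around the parent centriole, 4 sites lay within 27 nt (13719840 to 13719866 of chromosome 9, minus strand). Their mean siNC levels ran between 0.154 and 0.732, and the 2 sites with a siNC level above 0.5 were the ones called in both siVirma lists. Cep85 had 4 sites in 81 nt, of which 2 were called in both siVirma lists, and Cep120, needed for centriole elongation, had 4 in 88 nt, also with 2. In Myo18a 4 sites lay within 47 nt (77668380 to 77668426 of chromosome 11, plus strand), of which 3 were called in both siVirma lists. Exons and UTRs are not stated for these positions because no gene models of that build were used.

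Fewer sites were called after Virma knockdown. Of the 278 shared siNC sites 133 (47.8%) were called in both siVirma lists, 50 in 1 and 95 (34.2%) in neither. Over all shared sites 47.1% were called in both and 33.1% in neither. For sites with at least 50 reads in both controls the share called in both was 40.3% in these genes (62 sites), against 49.2% of all such sites. Between the controls themselves, 73.4% of the member sites of siNC replicate 1 were also listed in replicate 2, against 74.7% of all sites. The other way round it was 74.7% of the member sites of siNC replicate 2, against 80.0% of all sites. By family 56.5% of Myo sites, 46.4% of Kif sites and 44.7% of Cep sites were called in both siVirma lists. By role, the share was 37.9% for mitotic kinesins (11 of 29 sites) and 53.1% for transport kinesins (26 of 49). It was 47.2% for Cep genes of centriole assembly (34 of 72) and 42.3% for Cep genes of the cilium (11 of 26). The groups also differed in median siNC site level, with 0.512 in Myo, 0.423 in Kif and 0.418 in Cep. It was 0.287 in mitotic and 0.485 in transport kinesins, 0.389 in centriole assembly and 0.478 in cilium genes. The part of these levels in the group shares was not tested.

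Whether a site stayed on the list followed its control level. Of sites at 0.1 to 0.3 in siNC, 7 of 93 (7.53%) were called in both siVirma lists, against 7.57% of all such sites. The share was 36.2% at 0.3 to 0.5 (25 of 69), 80.4% at 0.5 to 0.7 (45 of 56) and 93.3% above 0.7 (56 of 60). Over all sites it was 42.0%, 75.2% and 90.3% in the same bands. Because a listed site needs at least 5 A reads and a level of at least 0.1, a weak site leaves the list at a smaller absolute loss than a strong one. At sites with few reads, 5 A reads ask for a level above 0.1, so staying on the list also depends on depth.

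**Figure D2:**
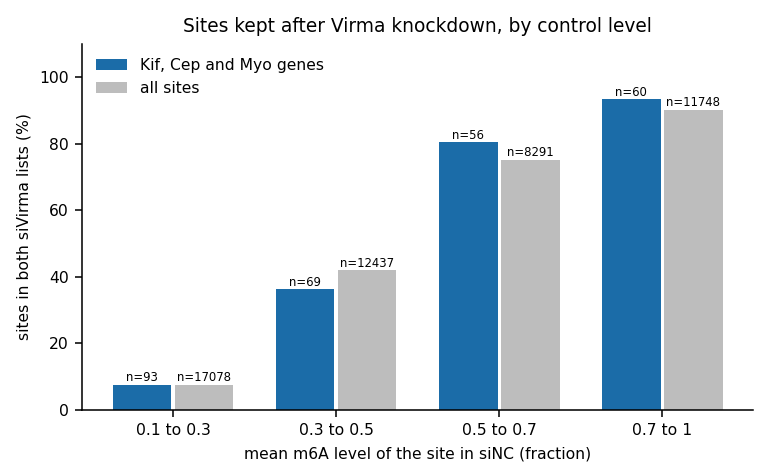
Share of sites called in both siVirma lists (y axis, percent) by their mean level in siNC (x axis, fraction), for the Kif, Cep and Myo genes and for all sites, with the number of sites above each bar. Both sets climb with the control level, the Kif, Cep and Myo sites between 7.53% and 93.3%.

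The same order held inside many single genes, but not in all. Of 33 genes that had both kept and other sites, 26 (78.8%) had every kept site above every other site in siNC level, against 60.8% of 5125 such genes in all. Full separation is easier with few sites, and among genes with at least 5 sites it was found in 11 of 18 (61.1%), against 49.2% of all. These shares were not tested. In Myo10 the 9 sites called in both siVirma lists had mean siNC levels of at least 0.315, and the 12 sites called in neither had at most 0.264. In Myo18a the 15 kept sites were at or above 0.460 and the other 3 at or below 0.339. Kif11 kept the flanking sites of its cluster, at or above 0.665, and the other 6 were at or below 0.241. The genes without full separation were Cep120, Cep170b, Cep192, Cep295, Cep85, Kif3b and Myo9b, several of them among the genes with the most sites. In Cep192 the weakest kept site had 0.174 and the strongest site that was not kept had 0.491.

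A few strongly methylated sites were not called in both siVirma lists. The site of Cep97, whose protein caps centrioles, had levels of 0.950 and 0.944 in siNC over 20 and 18 reads and was in neither siVirma list. The strongest Cep170 site had 0.810 and 0.952 in siNC over 21 reads each and 0.438 in siVirma replicate 2, over 16 reads. These read numbers lie close to the minimum of 15 reads, and a site under it is not listed. At the gene level 46 of the 57 genes had a site in both siVirma lists, against 6787 of 8806 genes in all. A further 7 had a site in 1 of them. Cep20, Kif22-ps, Kif5a and Myo19 had none in either.

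Few sites were listed in siVirma but not in siNC. Of 168 member sites called in both siVirma lists 13 (7.74%) were in neither siNC list, against 5.93% of all such sites. Cep170b had 3 of them and Kif3b 2. The most deeply read was a Myo9b site with levels of 0.463 and 0.426 in siVirma over 67 and 61 reads. It is not listed in siNC, so no change of level could be computed.

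The size of the loss was measured at sites called in all 4 libraries with at least 20 reads in each, which 104 of the 278 sites in 34 of the 57 genes met. This leaves out the sites that were lost from the siVirma lists. Nearly all of the measured sites lost m6A. Of the 104 sites 97 fell by edgeR's quasi-likelihood test on A and G reads (adjusted p under 0.05, Benjamini-Hochberg over all sites), against 91.6% of all 20414 sites tested, and all 104 had a lower mean in siVirma, against 97.7% of all sites. The median site level was 0.264 in siVirma and 0.635 in siNC. None rose by edgeR, limma or DESeq2, and none at unadjusted p under 0.05 by edgeR, against 0.147% of all sites by edgeR. Not every fall passed by each method. The Kif13b site at 65041030 did not pass by DESeq2 (adjusted p = 0.194). The Cep192 site at 67967976 did not pass by limma on logit levels (adjusted p = 0.233) or by DESeq2 (adjusted p = 0.255). Over all sites 18694 fell by edgeR, 18663 by limma and 17080 by DESeq2.

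**Figure D3:**
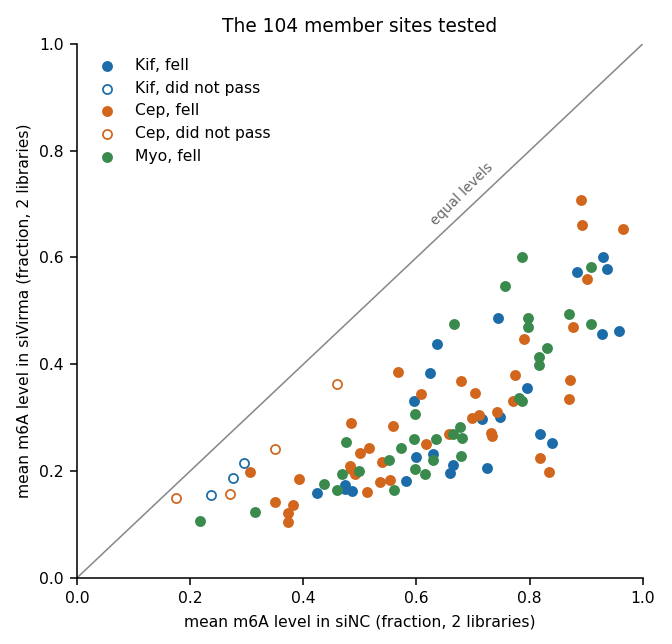
Mean m6A level of each of the 104 tested sites in siVirma (y axis) against siNC (x axis), as a fraction over 2 libraries each. Every point lies below the line of equal levels, and the 7 open points, which did not pass the test, are all below 0.5 in siNC.

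The 7 sites that did not pass were in Cep192 (2 sites), Cep170b, Cep295, Kif14, Kif18a and Kif3b. The smallest difference was at a Cep192 site with 0.151 and 0.147 in siVirma and 0.176 and 0.172 in siNC (adjusted p = 0.691). Its groups did not overlap, but each value rests on 29 to 53 reads.

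Among well-read sites (at least 50 reads in every library) the deepest falls were these. The Cep19 site at 31926509 of chromosome 16 had 0.371 and 0.368 in siVirma and 0.902 and 0.843 in siNC (adjusted p = 7.67e-14, edgeR). The Cep57 site at 13719850 had 0.266 and 0.276 in siVirma and 0.803 and 0.662 in siNC (adjusted p = 3.35e-10, edgeR). A further Cep57 site, at 13719958, had 0.319 and 0.30 in siVirma and 0.782 and 0.702 in siNC. The last Kif11 site of the cluster above, at 37408955, fell with an adjusted p of 1.18e-12 (edgeR). In all of these both siVirma libraries lay far below both controls.

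Among myosins, the Myo18a site at 77755777 of chromosome 11 had 0.516 and 0.433 in siVirma and 0.882 and 0.934 in siNC (adjusted p = 1.06e-09, edgeR). The site of Myo10 at 25812629 of chromosome 15 had 0.146 and 0.183 in siVirma and 0.446 and 0.676 in siNC (adjusted p = 5.31e-09, edgeR), with a wide gap between its controls. The Kif20a site called in all 4 libraries had 0.155 and 0.178 in siVirma and 0.519 and 0.429 in siNC, and the best-read Kif4 site had 0.165 and 0.153 in siVirma and 0.423 and 0.426 in siNC.

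Summed over the tested sites of a gene, 32 of 34 genes fell by edgeR (adjusted p under 0.05 over all genes), against 93.8% of 5642 genes tested. None rose by edgeR, against 0.177% of all genes, or by limma or DESeq2, and none rose at unadjusted p under 0.05 by edgeR. In the same number of genes, 32, both siVirma libraries were below both siNC libraries, which was the case in 95.4% of all genes. The remaining share, the mean siVirma level as a percentage of the mean siNC level, had a median of 42.5% (quartiles 37.2% and 52.5%), against 44.9% over all genes tested (38.3% and 53.5%). Its highest value among these genes was 72.8%, in Kif18a.

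**Figure D4:**
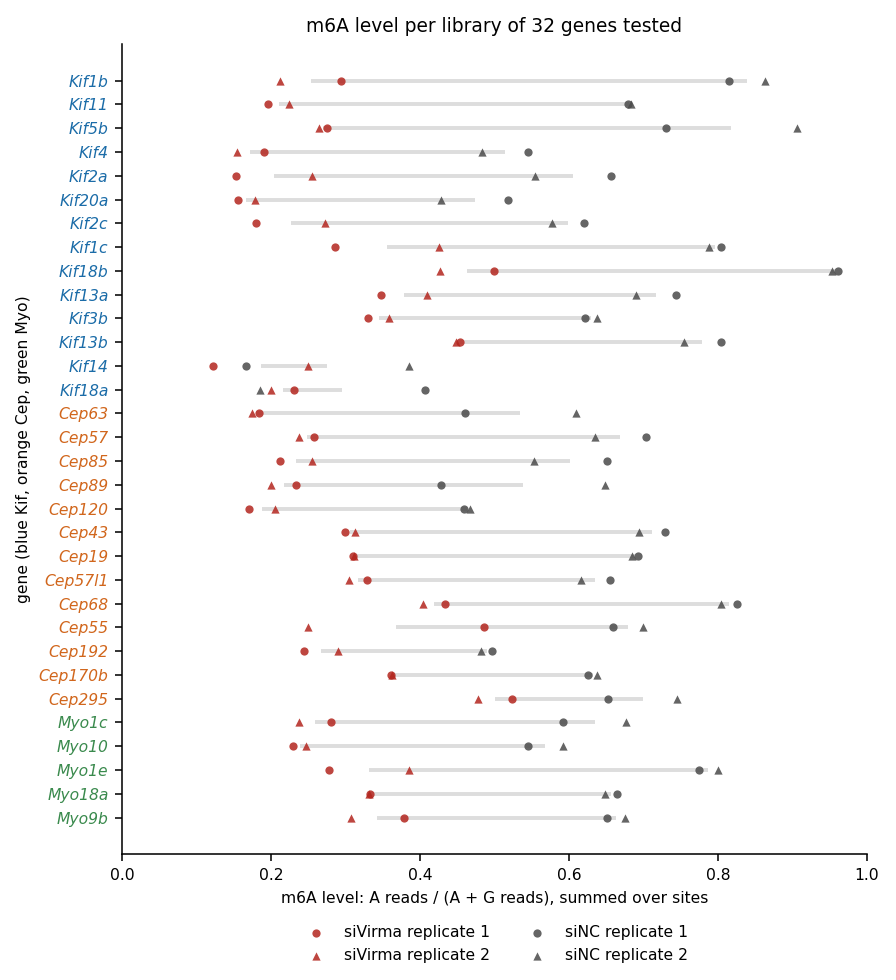
m6A level per library (x axis, fraction of A among A and G reads summed over the tested sites) of 32 of the 34 genes tested, by family and by remaining share. Points are libraries and grey bars join the group means. The groups overlap only in Kif14 and Kif18a.

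Mitotic kinesins had the lowest median remaining share of the role groups with more than 1 tested gene. Of 7 tested, 5 fell, against 93.8% of all genes tested. The median over the 7 was 37.8%, and the shares ran between 30.8% and 72.8%. Kif11 had 0.196 and 0.224 in siVirma and 0.679 and 0.683 in siNC, which left 30.8% of its level (log2 odds −3.01, SE 0.23, adjusted p = 3.63e-16, edgeR). Kif4, a chromosome-bound kinesin of the spindle midzone, had 0.190 and 0.154 in siVirma and 0.545 and 0.484 in siNC. It kept 33.4%. Kif20a, needed for cytokinesis, kept 35.2%. Kif18b, which shortens astral microtubules, had 0.500 and 0.426 in siVirma and 0.961 and 0.953 in siNC at its 1 tested site, while its other shared site averaged 0.348 in siNC.

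The 2 genes that did not pass were also mitotic kinesins, each measured at 1 site. Kif14, which acts in cytokinesis, had 0.122 and 0.250 in siVirma and 0.167 and 0.385 in siNC (adjusted p = 0.208, edgeR). Kif18a, which damps chromosome movements on the spindle, had 0.231 and 0.200 in siVirma and 0.406 and 0.185 in siNC (adjusted p = 0.286). In both the libraries of the groups overlapped. Leaving out 1 control changed the direction in both. At the same site Kif14 had a log2 odds of −1.53 without siNC replicate 1 (adjusted p = 0.0357, edgeR) and of 0.093, the opposite direction, without siNC replicate 2 (adjusted p = 0.908, edgeR). Kif18a had a log2 odds of 0.30 without siNC replicate 1 (adjusted p = 0.729, edgeR) and of −1.27 without siNC replicate 2 (adjusted p = 0.0623, edgeR).

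All 6 transport kinesins tested fell, against 93.8% of all genes tested, with a median remaining share of 48.7%. Kif13a had 0.348 and 0.410 in siVirma and 0.744 and 0.690 in siNC. Kif3b had 0.331 and 0.358 in siVirma and 0.621 and 0.638 in siNC, a remaining share of 54.7% (adjusted p = 5.28e-11, edgeR). Kif13b, another vesicle carrier, kept 57.9%, the most of the kinesins with at least 50 reads in every library. Kif5b, the heavy chain of conventional kinesin, had 0.275 and 0.265 in siVirma and 0.730 and 0.906 in siNC at its 1 tested site and kept 33.0%. In each of the 6 both siVirma libraries lay below both controls, as in 95.4% of all genes tested.

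All 14 Cep genes tested fell, against 93.8% of all genes tested. The median remaining share was 40.5% in the 7 genes of centriole assembly and 41.6% in the 4 of the cilium, and the 3 other Cep genes had 54.2%. Cep57 had 0.257 and 0.238 in siVirma and 0.703 and 0.635 in siNC and kept 37.0%. Cep85 had 0.212 and 0.256 in siVirma and 0.651 and 0.553 in siNC and kept 38.8%. Cep120 kept 40.5%. These 3 genes were the lowest of the Cep family with at least 50 reads in every library.

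At the other end, Cep170b had 0.361 and 0.362 in siVirma and 0.626 and 0.638 in siNC and kept 57.2%. Cep192 had 0.244 and 0.289 in siVirma and 0.497 and 0.482 in siNC and kept 54.5% (log2 odds −1.42, SE 0.14, adjusted p = 2.26e-12, edgeR). Cep68, part of the linker between centrosomes, had 0.433 and 0.404 in siVirma and 0.826 and 0.805 in siNC and kept 51.3%. Cep19, which acts at the base of cilia, kept all 4 of its sites on both siVirma lists and still fell to 0.310 and 0.311 in siVirma, against 0.693 and 0.685 in siNC. A fall without 1 library no longer passed in 4 genes with few reads. Among them were Cep295 and Cep89 without siNC replicate 2 (adjusted p = 0.0573 and 0.0529, edgeR) and Cep55 without siVirma replicate 2 (adjusted p = 0.0501, edgeR).

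All 6 myosins tested fell, against 93.8% of all genes tested. Myo10 had the most reads summed over tested sites of these genes, with 741 to 1073 per library over 9 sites. Its level was 0.229 and 0.247 in siVirma and 0.544 and 0.592 in siNC, which left 41.9% (log2 odds −2.08, SE 0.11, adjusted p = 8.05e-22, edgeR). Myo18a had 0.333 and 0.331 in siVirma and 0.665 and 0.649 in siNC and kept 50.6%. Myo9b had 0.378 and 0.307 in siVirma and 0.651 and 0.675 in siNC and kept 51.6%. Of the membrane-bound class 1 myosins, Myo1c kept 40.8% and Myo1e 42.1%.

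The remaining share varied between the sites of one gene. In Myo18a the remaining share over 15 tested sites ran between 31.5% and 76.2%, in Myo10 over 9 sites between 29.4% and 64.0%, and in Cep192 over 10 sites between 35.8% and 85.4%. Kif3b ranged between 36.6% and 65.6% over 6 sites and Cep85 between 23.7% and 43.6% over 6. The highest Myo10 share belonged to its strongest site, at 25781628, with 0.563 and 0.600 in siVirma and 0.865 and 0.953 in siNC. Its neighbour 12 nt upstream, at 25781616, had 0.268 and 0.253 in siVirma and 0.660 and 0.532 in siNC. These within-gene differences were not tested.

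Other genes of the same machinery, which the name rule does not take, gave medians of similar size. One list held 43 motors and partners of motors (Kifc kinesins, dynein and dynactin subunits, adaptors, myosin chains). Of these 20 were tested and all 20 fell, against 93.8% of all genes tested. Their median remaining share was 41.0%. The kinesins Kifc1 and Kifc5b lay above that median and kept 73.8% and 54.1%. Of 48 listed genes of the centrosome 22 were tested and 21 fell, with 41.9%. Pericentrin, encoded by Pcnt and another scaffold of the material around centrioles, averaged 0.298 ± 0.041 in siVirma and 0.546 ± 0.013 in siNC (SD, n = 2 each). Nde1, a dynein regulator, averaged 0.208 ± 0.029 in siVirma and 0.554 ± 0.013 in siNC (SD, n = 2 each).

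The deposited gene coverage served as a measure of transcript amount, and it changed little. The 6787 genes with a site in all 4 lists were compared after each library's median was removed, a shift of 0.17 on the log2 scale that was higher in siVirma. Of 46 member genes tested, 6 fell and 1 rose by limma (adjusted p under 0.05 over all genes), against 12.4% lower and 9.15% higher of all genes. The median log2 change was −0.05 in the 46 genes and −0.04 in all genes. In bulk RNA, fewer cells of a type and less RNA per cell cannot be told apart.

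The largest fall was in Kif5b, with a coverage of 56.4 and 50.0 in siVirma and 59.0 and 56.1 in siNC. Relative to the library medians these were 1.22 and 1.25 in siVirma and 1.50 and 1.49 in siNC (fold 0.823, adjusted p = 0.0099, limma). Kif18a had 0.600 and 0.631 of the median in siVirma and 0.732 and 0.727 in siNC (fold 0.844, adjusted p = 0.0181, limma). The others were Myo1e (fold 0.853), Cep89, a protein of the appendages that anchor cilia (0.855), Cep55, which acts in the last cut of cell division (0.879), and the microtubule-shortening Kif2a (0.882). Kif18b was the single rise, with 1.13 and 1.12 of the median in siVirma and 0.961 and 1.02 in siNC (fold 1.13, adjusted p = 0.0490, limma).

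Among the listed motors and partners of motors, 5 of 22 tested genes fell in coverage by limma and 1 rose. Over all genes 12.4% were lower and 9.15% higher. Fits with a library left out are not given here for the genes of these lists. The falls were in Actr1a (fold 0.842), a dynactin subunit, the dynein regulator Pafah1b1 (0.866), the cargo adaptor Hook1 (0.868), the dynein light chain gene Dynll2 (0.867) and Kifap3 (0.863), which binds the motor that contains Kif3b. Dynll1, another dynein light chain gene, rose (1.15). Of 25 centrosome genes none fell by limma, with 1 lower at unadjusted p under 0.05, and Tubgcp6, a subunit of the complex that starts new microtubules, rose (fold 1.21, adjusted p = 0.00981, limma). The gene Kif3b itself did not pass, with 30.8 and 26.4 in siVirma and 26.8 and 26.0 in siNC before the medians were removed (adjusted p = 0.428, limma).

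**Figure D5:**
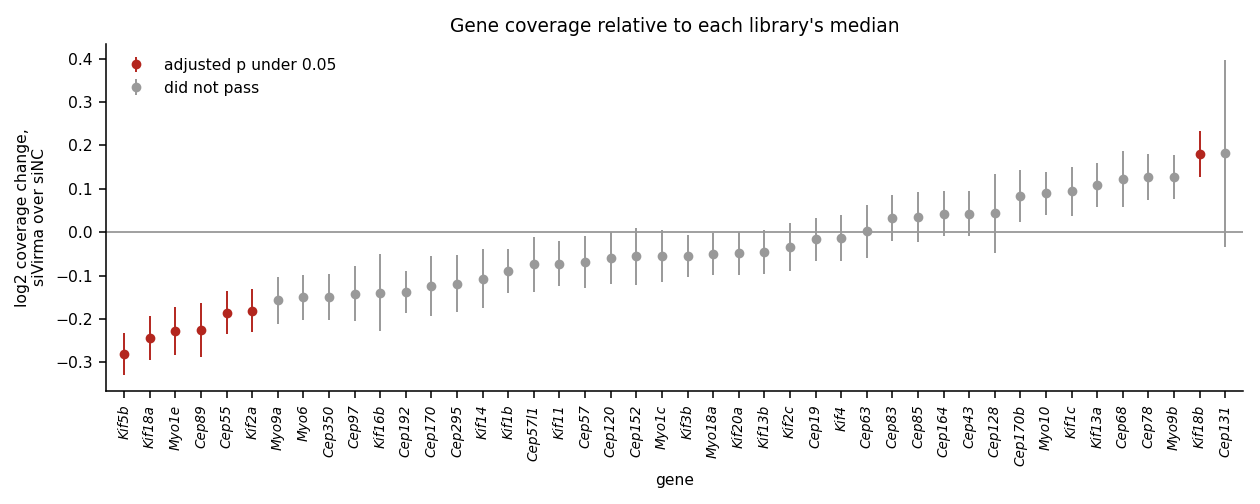
Change in deposited gene coverage relative to each library's median (y axis, log2 of siVirma over siNC, bars are standard errors of limma) for 44 of the 46 genes tested. The 7 red genes passed at an adjusted p under 0.05, and their fold changes ran between 0.823 and 1.13.

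Each of these 7 coverage calls was lost in at least 1 fit that left out a library, the call for Kif5b only without siVirma replicate 1 (adjusted p = 0.0791, limma). With no median removed, 0 fell and 0 rose by limma, and Kif18b then had a log2 change of 0.35 (adjusted p = 0.0566). At unadjusted p under 0.05 with the medians removed, 10 of the 46 genes were lower and 3 higher by limma. In all, 1627 of 6787 genes were lower and 1044 higher. On the same 6787 genes, 0 of the 6 falls passed without siVirma replicate 1, and Cep89, Kif18a and Kif5b passed without siVirma replicate 2. Kif5b alone passed without siNC replicate 1, and Kif5b and Myo1e without siNC replicate 2. The rise of Kif18b passed in none of these 4 fits (adjusted p 0.104 to 0.368, limma). The counts over all genes moved too. Without siVirma replicate 1, 5 genes were lower and 6 higher in all, and with no median removed 30 were lower and 642 higher. Centred on median ratios, an alternative chosen after seeing the data, 4 fell and 1 rose, and over all genes 655 fell and 902 rose in place of 841 and 621. Fibroblast genes moved with the groups. Of 13 measured, 8 were higher by limma with the medians removed, against 9.15% of all genes. Their summed coverage before the medians were removed was 1304 and 1061 in siVirma and 934 and 885 in siNC. Over all genes tested these sums were 719670 and 615781 in siVirma and 625284 and 600953 in siNC. Acta2 has no site in any of the 4 lists. Of the pluripotency genes 3 of 12 were lower and of the 2-cell genes 4 of 11, against 12.4% of all genes. The part of these cell markers in the coverage changes was not tested.

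In EPSC the pooled table allowed a look at the same positions in another cell type. Of the 278 sites 73 (26.3%) had a row there, in 28 genes, against 29.6% of all shared siNC sites. The most were in Myo10 (13 sites), Cep192 (9) and Cep85 (6). With at least 20 reads in both pools 25 sites in 12 genes remained. None of the 25 passed at an adjusted p under 0.05 by Fisher's exact test on pooled reads (smallest adjusted p 0.327), against 0.275% of 10185 sites tested, and 1 of the 25 had an unadjusted p under 0.05, against 11.8% of all sites tested. The test compares the pools and not the conditions, since the pools give no spread between libraries.

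At these 25 sites 12 were higher and 13 lower in sgGata6, with median levels of 0.304 in sgGata6 and 0.333 in sgCtrl. Their summed level ran the other way, with 0.385 in sgGata6 (326 of 846 reads, 95% Wilson interval 0.353 to 0.419) and 0.345 in sgCtrl (269 of 779 reads, 0.313 to 0.379). Over all 73 matched sites 42 were higher and 31 lower in sgGata6. Over 9 Myo10 sites the summed level was 0.294 in sgGata6 (93 of 316 reads, 0.247 to 0.347) and 0.272 in sgCtrl (82 of 302 reads, 0.224 to 0.324). The intervals overlap widely, and the median Myo10 site had 0.174 in sgGata6 and 0.273 in sgCtrl. The site with the small unadjusted p was in Kif20a, with 0.318 in sgGata6 (14 of 44 reads, 0.200 to 0.466) and 0.0968 in sgCtrl (3 of 31 reads, 0.0335 to 0.249). The intervals cover counting error only, since no molecular identifiers are described for these reads and some may be copies of one molecule. In TBLC the same Kif20a site was at 0.182 and 0.167 in siNC and was in neither siVirma list.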

How the data were processed

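GLORI libraries of TBLC and EPSC were made from mRNA, per the labels' protocols, and sites lie on build mm39, per the submitters' processing notes. Each TBLC list gives counts of A+G and A reads per called site, per the file headers. Levels were deposited as a fraction (A over A+G), and the authors' adjusted p-value per site was used only as a filter in 1 alternative. Gene coverage is a deposited signal, and no header or label says how it was computed. EPSC A counts and A+G coverage were deposited pooled per group, so Fisher's exact test replaced the planned test on single libraries. Aligner and site caller: not given in the sources used here.

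The genes and lists were chosen with earlier results of these data known. Groups came from sample titles. Levels were tested with edgeR 4.0.16 (R 4.3.3) on A and G counts with a term per library, at sites in all 4 lists with at least 20 reads. Coverage was tested with limma 3.58.1 on log2 values, and DESeq2 1.42.0 and limma on logit levels were alternatives for levels. A clustered site had a neighbour of its gene within 50 nt. Tests were tried on simulated data.

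Named genes had, per family, the most sites, the lowest or highest remaining share with at least 50 reads per library, the largest coverage changes, the largest cluster, or the highest or lowest share of kept sites (at least 5 sites). Named sites were the 3 largest falls per family with at least 50 reads, and in EPSC the 3 genes with most matched sites. Genes named for single values (such as Cep295, Cep97, Kif14 and Kif2a) were picked after their values were seen. Values of 2 genes are not reported here one by one, and the figures leave them out; counts and medians include them. All 57 symbols matched the RefSeq name table. Tables were made in pandas 2.3.3 (Python 3.11.15), intervals in scipy 1.17.1 and figures in matplotlib 3.10.9.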

Additional observations from a re-analysis of the deposited data

How the results depend on the processing

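Over the 104 sites and 34 genes tested, levels kept their direction under every alternative run except at the single sites of Kif18a and Kif14. With 1 library left out the log2 odds ran between −1.27 and 0.30 for Kif18a and between −1.53 and 0.093 for Kif14 (0.092 in the fit over sites). Leaving out a library also lets in sites that only the other lists share, so these fits were repeated on the same sites and genes, a choice made after seeing the data. With a second Kif14 site let in this way, the gene value without siNC replicate 2 was −1.46 (adjusted p = 0.00357, edgeR). On the same sites 86 to 91 sites and 30 to 32 genes fell. A group left with 1 library is assumed to vary like the other group. With at least 50 reads per library the test covered fewer sites and genes, and 23 sites and 11 genes fell. In all, 8504 of 9010 sites and 3108 of 3275 genes then fell. The median remaining share was 44.9% with no minimum of reads, 40.8% with 50 reads and 43.7% to 45.3% with 1 library left out; on the same sites it was 44.6% or 44.0% when siNC replicate 1 or 2 was dropped, and 44.4% or 42.7% when siVirma replicate 1 or 2 was dropped. The share of sites called in both siVirma lists was 65.8% when 1 siVirma list was enough (66.9% of all sites). It was 40.3% for sites with 50 reads in both controls (49.2% of all such sites) and 37.5% to 59.7% with 1 library left out. The clustered share was 20.5% with 20 nt, 52.9% with 100 nt, 52.4% for sites in either siNC list and 45.7% to 46.2% with 1 control left out. For coverage, 0 genes fell and 0 rose with no centring, and 0 to 3 fell and 0 to 1 rose with 1 library left out. The planned minimum coverage of 5 removed no gene, since the lists start at 15.

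The replicate numbers of siVirma and siNC are shared by name only (correlation of deviations 0.0079 for site levels and 0.138 for coverage, over 2 pairs). With the replicate block 97 sites and 32 genes fell in level, against 18693 of 20414 sites and 5293 of 5642 genes in all. In coverage 7 genes fell and 1 rose, against 1306 lower and 832 higher of 6787 genes in all. Sites read fewer than 15 times have no deposited value, so the levels of lost sites are unknown.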
